A study of Mus musculus with 40 samples.

Results

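Retinas of mice with oxygen-induced retinopathy (OIR) that had received a bispecific antibody to VEGFA and ANG-2 were compared at postnatal day 17 (P17) with OIR retinas that had received control IgG. The comparison rests on 8 of the 40 RNA-seq libraries of the study, 4 bispecific and 4 IgG, which were chosen by their titles and not by any measured value, and it covers all genes. All mice were C57BL/6J, and each library came from 1 whole retina. In OIR, pups breathed 75% oxygen from P7 to P12 and then room air. The bispecific antibody (B20.4.1_LC10) and the IgG were both given at P14 by injection into the vitreous, as 1 µl at 0.4 µg/µl. The other 3 P17 groups, each of 4 retinas, were OIR with anti-VEGFA (B20.4.1) or anti-ANG-2 (LC10), each as 1 µl at 0.2 µg/µl, and control retinas without OIR. The labels give no injection for the controls, so any comparison with controls contains OIR, injection and antibody together. The bispecific and IgG treatments at P19 give another pair of groups of 4 retinas each.

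VEGFA is the main growth signal for endothelial cells and acts through the receptors KDR and FLT1. Angiopoietin 2 (Angpt2, ANG-2) is released by activated endothelial cells and acts on the receptor TEK, where it mostly opposes angiopoietin 1 and loosens the contact between endothelium and pericytes. In OIR, high oxygen removes central retinal vessels, and on return to room air the vessel-poor retina becomes hypoxic, induces Vegfa and other hypoxia genes, and grows tufts of new vessels toward the vitreous. Antibody neutralises protein, so the mRNA of a target need not follow the dose of its antibody.

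Libraries held 15600000 to 18800000 counts in the bispecific group and 16500000 to 25800000 in the IgG group, within a range of 9160000 to 25800000 over all 40. Defining genes of rods, cones, bipolar, amacrine and ganglion cells and Müller glia were present in all 8 retinas, whereas the endothelial marker Cdh5 stayed at or below 1.8 CPM (counts relative to the scaled library size) in each of them. By Xist and Y-linked counts, 2 retinas of each group were of each sex. Some libraries held a little of both: bispecific replicates 3 and 4 had Xist at 23.3 and 5.06 CPM beside Y-linked sums of 200 and 196 CPM. IgG replicate 3 had a Y-linked sum of 11.7 CPM beside Xist at 388 CPM. The source of this was not tested. Of the 8 libraries 3 stood apart. IgG replicate 4 carried crystallin genes of the lens at a summed 4498 CPM, against 89.9 to 114 CPM in the bispecific retinas and 109 to 224 CPM in the other IgG retinas. Bispecific replicate 2 carried skeletal muscle genes at a summed 567 CPM, against 50.3 to 67.0 CPM in the other bispecific retinas and 51.0 to 58.9 CPM in the IgG retinas. Bispecific replicate 1 had the lowest Vegfa of the 8 retinas. Pigment epithelium genes summed to 1291 to 1690 CPM with bispecific, 985 to 1907 CPM with IgG and 291 to 603 CPM in controls, so their level differed between OIR and control retinas but overlapped between the antibody groups.

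**Figure D1:**
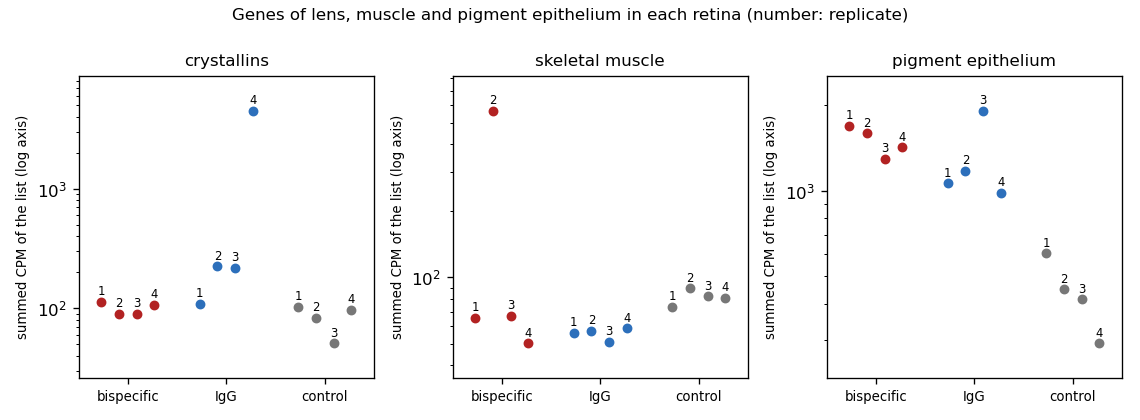
Summed CPM (log axis) of the crystallin, skeletal muscle and pigment epithelium genes in each P17 retina, bispecific, IgG and control from left to right, with the replicate number above each point. IgG replicate 4 lies far above all others for crystallins at 4498 CPM, and bispecific replicate 2 for skeletal muscle at 567 CPM.

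No gene passed the test between the bispecific and the IgG retinas at P17. Of 23495 genes tested with edgeR's quasi-likelihood test, 0 were called at a Benjamini-Hochberg adjusted p under 0.05 (0%), and the smallest adjusted p was 0.595. At an unadjusted p under 0.05 there were 921 genes (3.92% of those tested), of which 539 were higher (2.29%) and 382 lower (1.63%) with bispecific. All 4 bispecific libraries lay above or below all 4 IgG libraries in 793 genes (3.38%), 392 higher (1.67%) and 401 lower (1.71%). DESeq2, run as an alternative, called 16 genes, 5 higher and 11 lower with bispecific. Of these, 9 are crystallins, Mip is a lens channel, Atp2a1 and Neb are skeletal muscle genes, and the other 4 are Arhgap15, Gm15384 and further copies of Rcc2 and Kdm5a. By the same edgeR fit, 196 genes were called between OIR with bispecific and control retinas (0.834%; 189 higher, 0.804%, and 7 lower, 0.0298%), and 555 between OIR with IgG and control retinas (2.36%; 496 higher, 2.11%, and 59 lower, 0.251%). These last 2 counts share the control libraries, and a difference in such counts is not a test of bispecific against IgG, which called 0.

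The size of change that the 8 retinas could show depended on expression. Among 12729 genes with at least 5 CPM in the higher group, the central 90% of log2 fold changes (bispecific over IgG) ran from -0.40 to 0.48, and the median over all genes tested was 0.01. That median fell with expression, from 0.18 in genes under 1 CPM to -0.07 in genes above 100 CPM. In 10598 of these 12729 genes (83.3%) the 95% confidence interval of the fold lay within 0.5 to 2. In genes above 100 CPM the median interval reached 1.26-fold to either side of the estimate, in genes of 5 to 20 CPM 1.60-fold, and in genes of 1 to 5 CPM 2.89-fold. A 2-fold change was therefore outside the interval for most moderately expressed genes, whereas it was not detectable at this depth for genes around 1 CPM, among them many vessel genes. The p-values here measure the spread between retinas, since mouse and litter of origin are not stated for any retina.

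**Figure D2:**
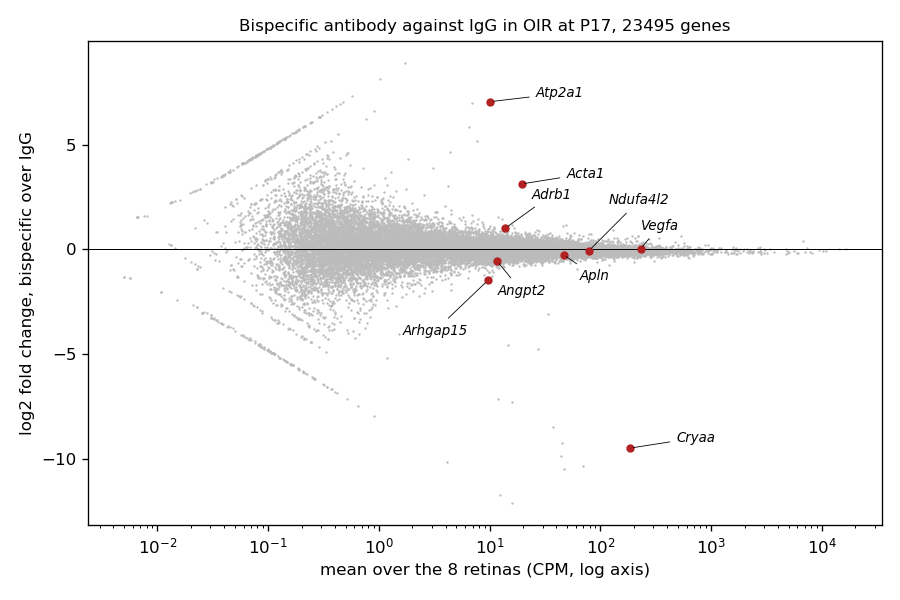
Log2 fold change of bispecific over IgG at P17 against the mean CPM over the 8 retinas (log axis) for the 23495 genes tested, each point 1 gene, with 9 genes marked in red. Above 5 CPM most points lie between -0.40 and 0.48; Cryaa and Atp2a1 lie far from 0, with Cryaa highest in IgG replicate 4 and Atp2a1 in bispecific replicate 2.

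The targets of the antibody and their receptors gave values that overlapped between the groups. Vegfa (GRCm38 chromosome 17, 46016993 to 46032369, minus strand) stood at 125, 231, 294 and 280 CPM in the bispecific retinas, at 251, 244, 199 and 218 CPM in the IgG retinas, and at 94.3, 107, 96.3 and 91.0 CPM in controls. Bispecific replicate 1 lay closest to the controls and the other 3 bispecific retinas within or above the IgG range. The fold was 1.02 (95% interval 0.774 to 1.34), and Vegfa mRNA was 2.39-fold higher in bispecific than in control retinas (adjusted p = 0.000135) and 2.35-fold higher in IgG than in control retinas (adjusted p = 0.000158). Angpt2 (chromosome 8, 18690263 to 18741562, minus strand), the gene of the other target, stood at 9.01, 6.81, 14.1 and 7.80 CPM with bispecific, 12.7, 10.2, 13.5 and 19.5 CPM with IgG and 6.32, 5.42, 4.85 and 4.91 CPM in controls. Of the 4 bispecific retinas, 3 lay below all IgG retinas and 1 within their range. The fold was 0.676 (0.392 to 1.17), an interval that holds both 1 and 0.5.

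The other ligands and receptors of the 2 pathways were as close, or too low to be informative. Kdr, the main signalling receptor of VEGFA, which in the retina is also made by neurons, had 102 ± 21.3 CPM with bispecific and 115 ± 25.7 CPM with IgG (SD, n = 4 each; fold 0.886, interval 0.649 to 1.21). Flt1, a receptor that also acts as a decoy for VEGFA, had 38.4 ± 7.22 and 39.1 ± 8.30 CPM in bispecific and IgG retinas (fold 0.981, 0.754 to 1.28). Nrp1, a coreceptor, gave a fold of 1.02 (0.661 to 1.59), and Vegfb, a ligand of FLT1, 1.15 (0.882 to 1.49). Pgf, a second ligand of FLT1, had 4.70 ± 3.19 CPM with bispecific and 4.22 ± 1.41 CPM with IgG. Tek, Tie1, Angpt1, Vegfc and Flt4 averaged under 3 CPM in both groups, and their intervals spanned more than a 4-fold range each. Of the 10 VEGF ligands and receptors tested, 0 were called, 5 gave a fold above 1 and 5 below, and the interval lay within 0.5 to 2 for 6. None of the 6 angiopoietin and Tie genes had so narrow an interval.

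Of the genes of tip cells and new vessels, which mark sprouting endothelium, apelin and adrenomedullin stood far above the controls in both groups. Apelin (Apln, chromosome X, 48025146 to 48034853, minus strand), a peptide made by tip cells, had 38.3, 40.2, 58.0 and 33.4 CPM with bispecific, 61.5, 51.4, 47.4 and 42.1 CPM with IgG and 3.29, 6.35, 3.64 and 3.10 CPM in controls. The bispecific and IgG ranges overlapped and both lay well above the controls. Its fold was 0.839 (0.541 to 1.3). Apln rose 10.3-fold in bispecific over control retinas (adjusted p = 5.55e-08) and 12.2-fold in IgG over control retinas (adjusted p = 8.26e-09). Adrenomedullin (Adm, chromosome 7, 110627661 to 110629820, plus strand), a vasoactive peptide induced by hypoxia, had 8.95, 18.5, 23.8 and 31.5 CPM with bispecific, 23.1, 37.1, 27.3 and 39.5 CPM with IgG and 2.42, 1.15, 0.574 and 2.02 CPM in controls. Bispecific replicates 1 and 2 lay below all IgG retinas, and the fold of 0.652 had an interval of 0.373 to 1.14.

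Adm rose 13.5-fold in bispecific over control retinas (adjusted p = 1.23e-06) and 20.7-fold in IgG over control retinas (adjusted p = 6.92e-08). The promoter windows of Vegfa, Adm and Apln are shown because these 3 vessel genes rose together in OIR with either antibody. They come from RefSeq (GRCm38.p6), run 5′ to 3′ on the strand of the gene from 250 bases before to 50 bases after the start, and the first listed start was used for Vegfa. Capitals mark the core of the hypoxia response element, searched as ACGTG or GCGTG on both strands.
Vegfa, chr17:46032328-46032627, minus strand: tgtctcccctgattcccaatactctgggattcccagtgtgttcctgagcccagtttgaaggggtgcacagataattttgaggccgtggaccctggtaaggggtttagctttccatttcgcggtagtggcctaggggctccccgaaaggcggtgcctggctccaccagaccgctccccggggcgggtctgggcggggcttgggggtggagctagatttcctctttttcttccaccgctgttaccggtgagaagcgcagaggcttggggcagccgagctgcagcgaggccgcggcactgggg
Adm, chr7:110627407-110627706, plus strand: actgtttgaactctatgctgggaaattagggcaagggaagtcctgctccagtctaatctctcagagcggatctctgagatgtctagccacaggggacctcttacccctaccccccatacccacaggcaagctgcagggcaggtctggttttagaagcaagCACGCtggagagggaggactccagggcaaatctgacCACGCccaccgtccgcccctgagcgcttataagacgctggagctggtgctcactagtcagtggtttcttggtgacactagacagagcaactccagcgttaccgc
Apln, chrX:48034804-48035103, minus strand: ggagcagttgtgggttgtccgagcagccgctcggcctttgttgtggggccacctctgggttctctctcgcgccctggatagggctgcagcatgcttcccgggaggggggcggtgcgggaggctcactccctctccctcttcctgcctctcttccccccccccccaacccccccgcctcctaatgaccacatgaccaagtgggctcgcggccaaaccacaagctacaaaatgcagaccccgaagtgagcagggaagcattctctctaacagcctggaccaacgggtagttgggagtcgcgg
The Adm window held 2 matches, both read as CACGC, which is GCGTG on the other strand, and the Vegfa and Apln windows held 0. Of 32851 promoter windows of this length, 43.8% held at least 1 match. The absence of these letters in a window says nothing about elements outside it.

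Several of the other tip cell genes were low. Esm1, a secreted tip cell marker, stood at 0.965 ± 0.531 CPM with bispecific and 1.07 ± 0.257 CPM with IgG, and Dll4, the Notch ligand of tip cells, at 1.18 ± 1.63 and 0.715 ± 0.555 CPM in bispecific and IgG retinas. Aplnr, the apelin receptor, averaged 3.63 ± 1.45 CPM with bispecific and 2.23 ± 1.01 CPM with IgG (fold 1.62, 0.540 to 4.85). Plvap, which forms the diaphragms of leaky vessels, averaged 5.52 ± 1.44 and 6.12 ± 1.42 CPM in bispecific and IgG retinas (fold 0.902, 0.530 to 1.54). Of the 20 tip cell and neovascular genes tested, 0 were called, 9 gave a fold above 1 and 11 below, and the median log2 fold change was -0.13 against 0.01 over all genes. The 20 differ in level, and the median over all genes ran from 0.13 at 1 to 5 CPM to -0.07 above 100 CPM.

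**Figure D3:**
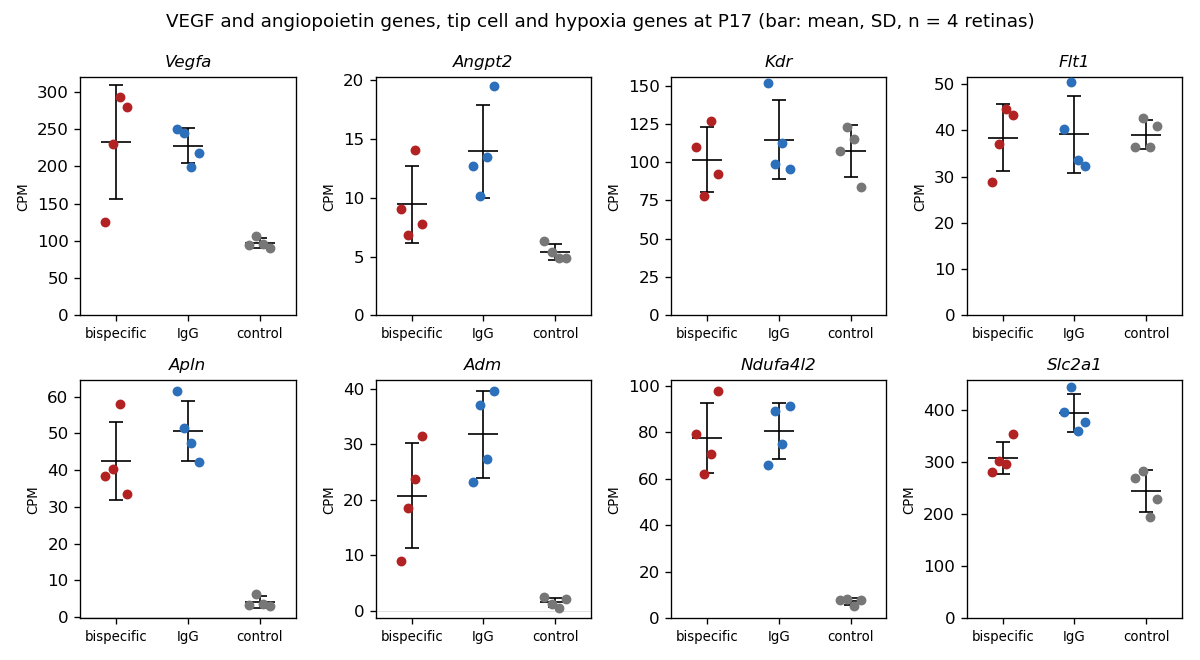
CPM of 8 genes in each P17 retina, bispecific in red, IgG in blue and control in grey, with the mean and SD (n = 4) as bars. Vegfa, Apln, Adm and Ndufa4l2 lie above the controls in both antibody groups with overlap between them; Slc2a1 is the 1 panel in which all bispecific retinas (281 to 353 CPM) lie below all IgG retinas (359 to 444 CPM).

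Of the 26 endothelial genes tested, 1 had bispecific and IgG retinas that did not overlap, as did 1 of the 16 barrier and Norrin-Wnt genes (Slc2a1, described with the hypoxia genes), against 3.38% of all genes. The endothelial one was Egfl7, a secreted endothelial protein named here after its values were seen, with 11, 13.6, 11.3 and 13.7 CPM with bispecific, 14.2, 15.3, 19 and 17.8 CPM with IgG and 3.57 to 11 CPM in controls (fold 0.748, 0.510 to 1.10, adjusted p = 1.00). Pecam1, an adhesion protein of endothelial cells, had 4.73 ± 2.40 CPM with bispecific and 5.23 ± 1.01 CPM with IgG (fold 0.904, 0.452 to 1.81), and Cldn5, the tight junction protein of the blood-retina barrier, 7.21 ± 0.814 and 8.27 ± 2.84 CPM in bispecific and IgG retinas (fold 0.874, 0.570 to 1.34). Mfsd2a, a lipid transporter of barrier endothelium, had 3.16 ± 2.22 CPM with bispecific and 5.54 ± 1.69 CPM with IgG, with an interval of 0.263 to 1.24. Of 26 endothelial genes tested, 11 gave a fold above 1 and 15 below, with 0 at an unadjusted p under 0.05. In whole-retina RNA, fewer cells of a type and less RNA per cell cannot be told apart. The summed level was 262 to 323 CPM with bispecific, 274 to 354 CPM with IgG and 272 to 323 CPM in controls. Such a sum follows mainly its most abundant members. Gene by gene, the median log2 fold change against controls was 0.35 with bispecific and 0.56 with IgG. Called higher than controls were 0 with bispecific (0.804% of all genes were) and 1 with IgG (2.11% of all genes were).

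Rgs5 and Acta2, members of a list of 16 pericyte and smooth muscle genes, stood above the controls in both antibody groups. Over the 16, the median log2 fold change against controls was only 0.18 with bispecific and 0.04 with IgG. Called higher than controls were 4 with bispecific (0.804% of all genes were) and 4 with IgG (2.11% of all genes were). For bispecific over IgG, 10 of the 16 gave a fold above 1 and 6 below, and 0 were called. Rgs5, a pericyte marker, had 122, 90.5, 77.6 and 76.1 CPM with bispecific and 89.6, 80.8, 118 and 96.4 CPM with IgG, against 37.8 to 58.3 CPM in controls. The antibody groups overlapped throughout (fold 0.952, 0.704 to 1.29). Acta2, the contractile actin of smooth muscle, had 11.6 ± 3.91 CPM with bispecific, 14.2 ± 4.34 CPM with IgG and 1.98 ± 0.710 CPM in controls (fold of bispecific over IgG 0.812, 0.450 to 1.46). Of the 20 matrix and basement membrane genes tested, 10 gave a fold above 1 and 10 below. Sparc, an abundant matrix protein, gave a fold of 1.01 (0.769 to 1.33), and Timp1, described with the glial genes, was the 1 member with an unadjusted p under 0.05.

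Of the 28 hypoxia genes tested, 1 had bispecific and IgG retinas that did not overlap. Ndufa4l2 (chromosome 10, 127514967 to 127517154, plus strand), a mitochondrial protein induced by HIF that also marks pericytes, had 79.0, 62.2, 70.7 and 97.7 CPM with bispecific, 65.9, 89.1, 74.9 and 91.4 CPM with IgG and 7.73, 8.30, 5.23 and 8.01 CPM in controls. All 8 OIR retinas lay far above the controls and the 2 antibody groups overlapped fully. The fold was 0.964 (0.688 to 1.35), so that a 2-fold difference in either direction lay outside the interval. Slc2a1, the glucose transporter GLUT1 of barrier endothelium and glia, was chosen for mention after its values were seen. It had 281, 301, 295 and 353 CPM with bispecific, 395, 444, 359 and 377 CPM with IgG and 270, 282, 195 and 228 CPM in controls. All bispecific retinas lay below all IgG retinas, which 3.38% of all genes did in one direction or the other, and the fold was 0.781 (0.605 to 1.01, adjusted p = 1.00). Bnip3, a mitophagy receptor induced by HIF, had 522 to 748 CPM with bispecific and 584 to 943 CPM with IgG (fold 0.805, 0.628 to 1.03).

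Over the 28 hypoxia and HIF target genes tested, 0 were called in either direction, 21 gave a fold below 1 and 7 above, and the median log2 fold change was -0.09. Their intervals lay within 0.5 to 2 for 21. The 18 glycolysis genes had 16 folds below 1 and 2 above with a median of -0.11, all 18 with intervals within 0.5 to 2. Over all genes the median was -0.02 at 20 to 100 CPM and -0.07 above 100 CPM, so part of such a lean is shared by abundant genes. Glycolytic enzymes are most abundant in photoreceptors. Ldha, which makes lactate, had 6008, 4571, 3950 and 4722 CPM with bispecific and 4452, 5784, 5650 and 5271 CPM with IgG (fold 0.910, 0.725 to 1.14). Slc16a1, a lactate transporter, was the 1 member with an unadjusted p under 0.05: 285, 288, 337 and 314 CPM with bispecific and 443, 424, 421 and 327 CPM with IgG, which overlap in 1 IgG retina (fold 0.758, 0.603 to 0.954, adjusted p = 1.00). Against controls, 7 of the 28 hypoxia genes were called higher in bispecific retinas, where 0.804% of all genes were, and 11 in IgG retinas, where 2.11% were. These counts come from separate contrasts of the same fit that share the controls, and the direct contrast of bispecific and IgG called 0.

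Of the 22 microglial and macrophage genes tested, 1 had bispecific and IgG retinas that did not overlap, a share near the 3.38% of all genes. C1qb, a subunit of the complement starter C1q made by microglia, had 138, 98.4, 86.1 and 101 CPM with bispecific, 74.4, 133, 152 and 125 CPM with IgG and 34.2, 22.3, 16.4 and 29.2 CPM in controls. The groups overlapped, with the lowest OIR value in an IgG retina and the fold at 0.873 (0.641 to 1.19). Lyz2, the lysozyme of macrophages, averaged 40.4 ± 7.02 CPM with bispecific and 35.4 ± 10.4 CPM with IgG (fold 1.14, 0.732 to 1.78). Aif1, a microglial calcium-binding protein, averaged 2.11 ± 0.472 and 2.07 ± 0.583 CPM in bispecific and IgG retinas. P2ry12, a receptor of resting microglia that was chosen for mention after its values were seen, had 13.4, 14.3, 15.8 and 14.8 CPM with bispecific and 16.4, 26.2, 22.6 and 17.7 CPM with IgG. The groups did not overlap, and the fold of 0.703 had an interval of 0.447 to 1.10. Of the 22 microglia and macrophage genes tested, 17 gave a fold below 1 and 5 above, with a median log2 fold change of -0.15, 0 at an unadjusted p under 0.05 and 12 intervals within 0.5 to 2. Against controls, 13 of the 22 rose with bispecific (0.804% of all genes did) and 17 with IgG (2.11% of all genes did), again over shared control libraries.

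Other inflammatory groups gave no call either. The 13 complement genes tested had 7 folds above 1 and 6 below (median log2 fold change 0.01), with C3, the central complement protein, at 7.16 ± 3.53 CPM with bispecific and 4.58 ± 2.24 CPM with IgG. Of the 24 cytokine, chemokine and adhesion genes 17 were tested, and 7 gave a fold above 1 and 10 below. Ccl2, the monocyte attractant, lay at 0.876 ± 0.579 CPM with bispecific and 0.776 ± 0.574 CPM with IgG, with an interval from 0.165 to 7.68. Neither group can be ranked at that level. Of the 23 interferon and antigen presentation genes, 10 gave a fold above 1 and 13 below, with 0 at an unadjusted p under 0.05. Most products of the 7 Fc receptor genes bind the constant part of IgG, which an injected IgG carries. These genes had 2 folds above 1 and 5 below, with a median log2 fold change of -0.17. Fcgr3, 1 of the 2 above 1, had a fold of 1.11 (0.685 to 1.79). Of 13 neutrophil and lymphocyte genes only 4 had enough counts to be tested, and their sums were 1.88 to 6.63 CPM with bispecific and 2.13 to 3.54 CPM with IgG.

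Glial genes divided into 2 lists, stress genes that are induced in OIR and identity genes of Müller glia. Gfap, the filament protein of astrocytes and stressed Müller glia, had 341, 256, 148 and 346 CPM with bispecific, 131, 348, 207 and 166 CPM with IgG and 61.6, 42.3, 26.7 and 28.4 CPM in controls. The antibody groups overlapped over nearly their whole range (fold 1.28, 0.791 to 2.07). Edn2, an endothelin made by stressed photoreceptors, averaged 6.78 ± 2.81 CPM with bispecific and 5.92 ± 5.85 CPM with IgG. Lcn2 and Timp1, the secreted siderophore-binding protein lipocalin 2 and a metalloproteinase inhibitor, were chosen for mention after their values were seen. Lcn2 had 44.5, 14.2, 7.08 and 9.79 CPM with bispecific and 4.58, 10.1, 8.01 and 4.45 CPM with IgG (fold 2.77, 1.42 to 5.40, adjusted p = 1.00). Timp1 had 15.1, 4.26, 1.59 and 4.73 CPM with bispecific and 1.24, 3.42, 1.03 and 0.366 CPM with IgG (fold 4.19, 1.36 to 12.9, adjusted p = 1.00). Both were by far highest in bispecific replicate 1, the retina with low Vegfa, and overlapped between the groups otherwise. Of 23 reactive glia genes tested, 14 gave a fold above 1 and 9 below, and 14 rose against controls with bispecific (0.804% of all genes did) and 14 with IgG (2.11% of all genes did).

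All 12 Müller glia genes tested gave a fold below 1. Their log2 fold changes ran from -0.42 to -0.02 with a median of -0.21. Over all genes the median was -0.02 at 20 to 100 CPM and -0.07 above 100 CPM. All 12 Müller glia intervals lay within 0.5 to 2. The edgeR test called 0 of them, and over 19 alternative settings the median stayed between -0.26 and -0.14. Their summed level was 4010 to 4477 CPM with bispecific and 4513 to 5322 CPM with IgG. All 4 bispecific sums thus lay below all 4 IgG sums. In controls the sum was 4715, 4585, 2821 and 4525 CPM, so only control replicate 3 lay below the bispecific sums. Of the 12 members taken singly, 0 had bispecific and IgG retinas that did not overlap, where 3.38% of all genes did. Aqp4, the water channel of Müller end feet, was the 1 member with an unadjusted p under 0.05. It had 58.2, 96.1, 90.7 and 73.0 CPM with bispecific, 115, 101, 121 and 89.5 CPM with IgG and 103, 105, 77.8 and 88.2 CPM in controls (fold of bispecific over IgG 0.745, 0.567 to 0.980, adjusted p = 1.00). Glul, which converts glutamate to glutamine, had 514 ± 70.5 CPM with bispecific and 590 ± 73.9 CPM with IgG (fold 0.871, 0.638 to 1.19). Genes of 1 cell type are not independent of each other, and no test was made over the list.

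**Figure D4:**
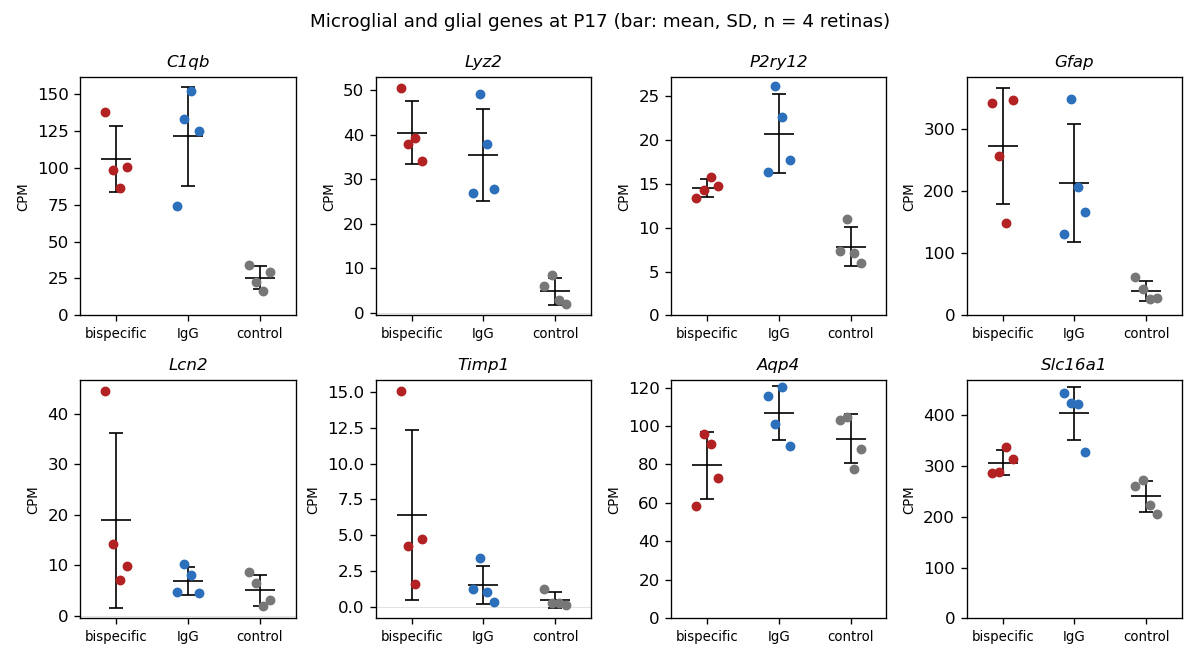
CPM of 8 microglial and glial genes in each P17 retina, bispecific in red, IgG in blue and control in grey, with the mean and SD (n = 4) as bars. C1qb, Lyz2 and Gfap lie above the controls in both antibody groups; for Lcn2 and Timp1 the bispecific mean is carried by replicate 1 at 44.5 and 15.1 CPM.

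Neuronal lists had medians near that of all genes, other than the 4 horizontal cell genes. The 18 rod genes had 9 folds above 1 and 9 below with a median log2 fold change of -0.01, and all 18 intervals lay within 0.5 to 2. Of the 12 cone genes 7 gave a fold above 1 and 5 below, with Arr3, the cone arrestin, at 378 CPM in bispecific replicate 1, 171 to 209 CPM in the other bispecific retinas and 152 to 193 CPM in IgG retinas (fold 1.3, adjusted p = 1.00). The 16 bipolar, 19 amacrine and 18 ganglion cell genes had medians of -0.06, -0.04 and -0.01.

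Bipolar genes varied mainly inside the bispecific group. Their sum was 1231, 1613, 2195 and 2096 CPM in bispecific replicates 1 to 4 and 1683 to 2109 CPM in the IgG retinas, and Trpm1, the cation channel of ON bipolar cells, ran from 124 to 426 CPM with bispecific and from 203 to 336 CPM with IgG. Bispecific replicate 1 was lowest in both. Lrit3, a synaptic protein needed by ON bipolar cells, was seen to have the smallest p of the list, with 13.3, 11.6, 10.5 and 6.67 CPM with bispecific and 7.16, 6.60, 1.93 and 5.73 CPM with IgG (fold 1.96, 1.24 to 3.11, adjusted p = 1.00), and control retinas had 9.41 to 14 CPM. All 4 horizontal cell genes gave a fold below 1 (median log2 fold change -0.41), led in level by Calb1, a calcium buffer also present in amacrine cells, at 244, 161, 191 and 167 CPM with bispecific and 250, 237, 265 and 212 CPM with IgG (fold 0.792, 0.618 to 1.02).

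**Figure D5:**
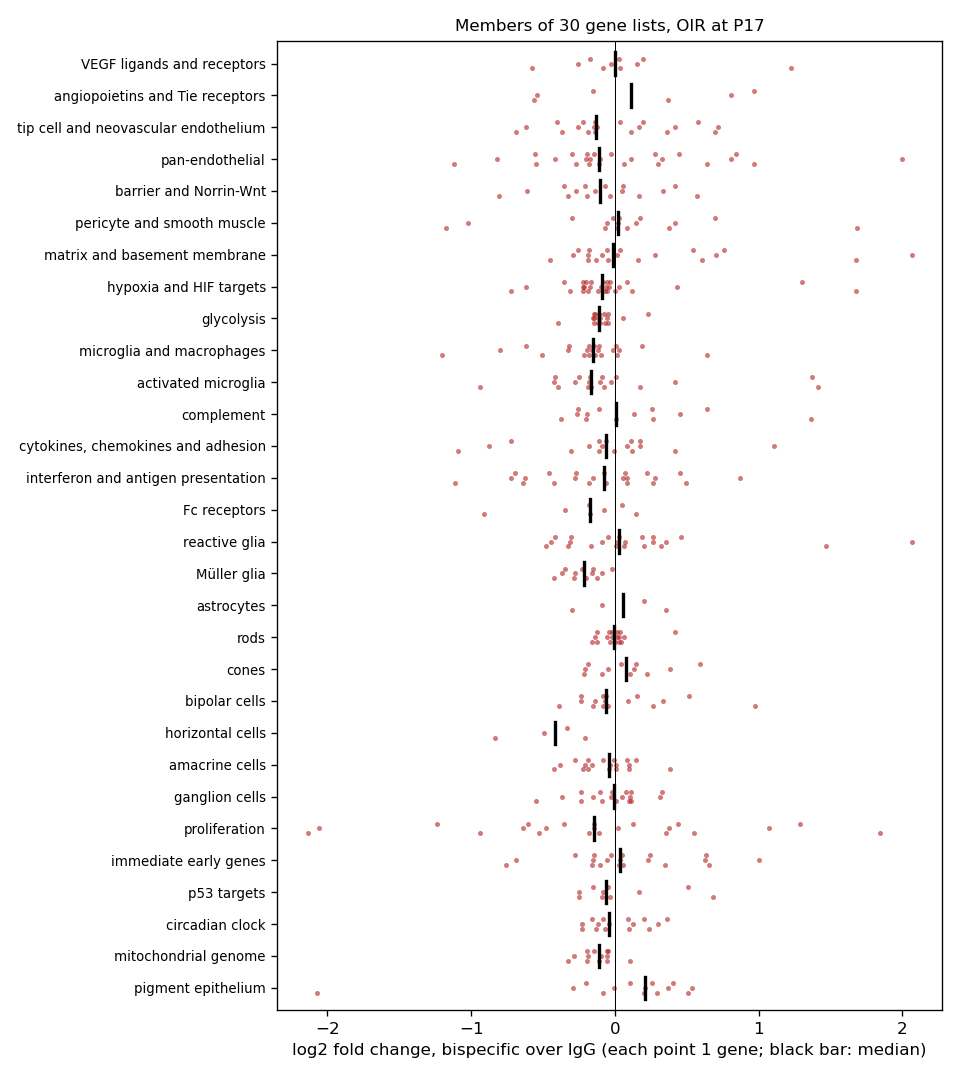
Log2 fold change of bispecific over IgG at P17 for each tested member of 30 gene lists, each point 1 gene and the black bar the median of the list; 6 lists dominated by single libraries, by sex or by blood cells are not drawn. Medians lie close to 0, with Müller glia at -0.21 and horizontal cells at -0.41 the lowest, and no point is a called gene.

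Lists of cell state had medians within 0.15 of 0. The 22 proliferation genes ran from -2.14 to 1.84 in log2 fold change with levels of a few CPM. Mki67, a marker of dividing cells, had 2.42 ± 1.64 CPM with bispecific and 0.670 ± 0.415 CPM with IgG (adjusted p = 1.00). Ccnb1, a mitotic cyclin, went the other way, at 0.0644 to 2.13 CPM with bispecific and 3.29 to 4.83 CPM with IgG. It was the 1 member in which the groups did not overlap, against 3.38% of all genes. Of the 22, 1 was higher at an unadjusted p under 0.05, where 2.29% of all genes were, and 0 were lower, where 1.63% were. The 20 immediate early genes, 10 p53 targets and 15 clock genes had medians of 0.03, -0.06 and -0.04. Of the 13 genes of the mitochondrial genome 12 gave a fold below 1, with a median of -0.11, against -0.07 over all genes above 100 CPM.

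The genes with the smallest p-values were also not called by edgeR. Among those that reached 5 CPM in either group, Arhgap15 (chromosome 2, 43748824 to 44395953, plus strand), a Rac GTPase-activating protein of blood cells and neurons, was lowest in p of the genes below 1. It had 5.02, 4.73, 6.84 and 3.82 CPM with bispecific, 13.5, 11.6, 22 and 9.39 CPM with IgG and 9.82, 13.4, 5.10 and 12.4 CPM in controls. The bispecific and IgG retinas did not overlap, and the fold was 0.360 (0.232 to 0.560, edgeR adjusted p = 0.595), whereas DESeq2 gave an adjusted p of 0.00355. Plod3, a lysyl hydroxylase of collagens, had 6.82 ± 1.42 CPM with bispecific, 14.5 ± 2.48 CPM with IgG and 13.3 ± 4.29 CPM in controls (fold 0.472). Bbs10, a chaperonin-like ciliary gene, had 17.4 ± 5.24 CPM with bispecific and 29.3 ± 4.91 CPM with IgG (fold 0.592). Gabbr1, a GABA-B receptor subunit, appears with further copies of its symbol, of which 2 gave the same fold of 0.473 and cannot be told apart by their reads. This fold is that of the 2 copies and not of the gene as a whole.

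In the other direction, Adrb1, the beta-1 adrenergic receptor, had 15.4, 13.9, 23.1 and 22.1 CPM with bispecific, 9.38, 12.2, 8.91 and 6.10 CPM with IgG and 10.6, 15, 21.7 and 15.8 CPM in controls. All bispecific retinas lay above all IgG retinas and within or near the control range (fold 2.03, 1.43 to 2.87, adjusted p = 0.849). Ttl, which adds tyrosine back to tubulin, had 8.02 ± 2.44 CPM with bispecific, 2.99 ± 1.14 CPM with IgG and 7.02 ± 0.739 CPM in controls (fold of bispecific over IgG 2.67, adjusted p = 1.00), and the gene model Gm15496 had 7.08 ± 2.90, 1.94 ± 0.551 and 8.75 ± 2.95 CPM in bispecific, IgG and control retinas (fold 3.64, adjusted p = 0.849). For these 3 the IgG mean lay below both the bispecific and the control mean. They were picked by small p with bispecific above IgG, which favours genes with low IgG values, so this order is not a separate result.

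Skeletal muscle genes followed mainly 1 library, whereas lens crystallin genes were by far highest in 1 library but not confined to it. Atp2a1, the calcium pump of fast skeletal muscle, had 0.837, 78.9, 0.305 and 0.484 CPM with bispecific and 0 to 0.305 CPM with IgG, and Acta1, skeletal actin, had 125 CPM in bispecific replicate 2, 3.22 to 7.08 CPM in the other bispecific retinas and 2.83 to 4.88 CPM with IgG. Of 13 skeletal muscle genes tested, all gave a fold above 1 with all libraries; the list was added after seeing the data. Without bispecific replicate 2, Acta1 gave a fold of 1.15 and Atp2a1 of 3.55. Crystallin genes ran the other way, with all 16 tested below 1. Their median log2 fold change was -8.85 with all libraries and -4.99 without IgG replicate 4. In 4 of the 16 the bispecific and IgG retinas did not overlap, against 3.38% of all genes. Cryaa, the main alpha crystallin of the lens, had 0.966, 0.104, 0.793 and 0.269 CPM with bispecific and 1.67, 45.4, 46.8 and 1378 CPM with IgG. Without IgG replicate 4 its log2 fold change was -5.92 (adjusted p = 1.00), against -9.48 with all libraries, since IgG replicates 2 and 3 also carried some crystallin RNA. Hba-a1, a globin of red blood cells, had 107 ± 28.6 CPM with bispecific and 157 ± 131 CPM with IgG, with 1 IgG retina at 344 CPM.

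The bispecific antibody was also set directly against the antibodies to each single target at P17, at unequal doses, since the single antibodies were given at 0.2 µg/µl and the bispecific at 0.4 µg/µl. The bispecific antibody, per its name, joins the binding parts of both clones. With edgeR, 0 of 23495 genes were called against anti-VEGFA (0%; 676 at an unadjusted p under 0.05, 2.88%) and 0 against anti-ANG-2 (0%; 662, 2.82%). DESeq2 called 15 and 20. Most of these were crystallins, with the lens gene Mip in both, Xist against anti-VEGFA and Y-linked genes against anti-ANG-2. The others were Arsi, Gm30531 and a further copy of Rcc2 against anti-VEGFA. Against anti-ANG-2 they were Actn3, Arhgap15, Arsi and Fbxw21. Vegfa had folds of 1.01 (0.767 to 1.33) over anti-VEGFA and 1.02 (0.772 to 1.34) over anti-ANG-2, and Apln 1.08 (0.697 to 1.68) and 1.10 (0.712 to 1.71). Angpt2 had folds of 1.02 (0.589 to 1.75) over anti-VEGFA and 1.09 (0.630 to 1.88) over anti-ANG-2. C1qb was 1.48-fold that with anti-VEGFA (1.09 to 2.02, adjusted p = 1.00) and 1.02-fold that with anti-ANG-2 (0.748 to 1.39). Gfap was 1.82-fold (1.12 to 2.96, adjusted p = 1.00) and 1.47-fold (0.906 to 2.38). All 4 anti-VEGFA retinas carried Y-linked counts and all 4 anti-ANG-2 retinas Xist, against 2 and 2 in the bispecific group, and 1 retina of each single antibody had a crystallin sum of 6344 or 6480 CPM; the part of either in these values was not tested. Against the shared IgG libraries, anti-VEGFA and anti-ANG-2 also gave 0 calls, with 1128 (4.8%) and 1795 (7.64%) genes at an unadjusted p under 0.05.

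At P19 the same contrast called 11 genes (0.0468% of 23495), 1 higher (0.00426%) and 10 lower (0.0426%) with bispecific, in other retinas. The difference between the ages, tested as an interaction, called 0 genes (0%; 1055 at an unadjusted p under 0.05, 4.49%), so the ages are not shown to differ. DESeq2 called 19 for it, among them 4 Y-linked genes and 5 crystallins, and edgeR called 2, Tenm3 and a further copy of Caprin2, without bispecific replicate 3 of P19. Of the 11 genes, 8 had the P19 direction at P17, and the share of all genes with the same direction at both ages was not computed. Of the 8, 2 had an interval that did not hold 1, where 3.92% of all genes had an unadjusted p under 0.05 at P17. These were Crot, a peroxisomal carnitine transferase, with a fold of 0.769 (0.629 to 0.940) and Gpm6a, a neuronal membrane glycoprotein, with 0.751 (0.605 to 0.932). Neither was called at P17 (adjusted p = 1.00 for both). Scgn, secretagogin, a calcium sensor of bipolar cells, had the smallest adjusted p at P19, with 125 ± 21 CPM for bispecific and 225 ± 18.9 CPM for IgG (fold 0.555, adjusted p = 0.000819), and at P17 had 212 ± 19.2 CPM for bispecific and 233 ± 21.9 CPM for IgG (SD, n = 4 each; fold 0.908, 0.762 to 1.08). Its age difference had an adjusted p of 0.759. At P19 all 4 bispecific retinas carried Xist and all 4 IgG retinas Y-linked counts, so sex and antibody cannot be told apart there, whereas at P17 both groups held 2 and 2.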

How the data were processed

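Each retina was processed by itself: per the labels' protocols, total RNA of a whole retina went through SMART-Seq mRNA amplification and Nextera XT library preparation. As no molecular identifiers and no strand are named, overlapping and antisense genes cannot be told apart and reads are not counted as molecules. The expected counts (RSEM) and the TPM values, for 42037 gene symbols and 40 libraries, are those the authors deposited. STAR 2.7.10a, RSEM 1.3.3 and GRCm38.p4 are named per the submitters' processing notes; which annotation was used is not given.

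Expected counts were rounded (15.7% of nonzero values were not whole) and fitted with edgeR 4.0.16 (quasi-likelihood, robust, TMM, low-count filter by group) over all 40 libraries and 10 groups, with 30 residual degrees of freedom. A gene was called at a Benjamini-Hochberg adjusted p under 0.05 over the 23495 genes tested. CPM values use TMM-scaled library sizes, and folds and 95% intervals are from the fit. The fit was tested on simulated counts. Alternatives were DESeq2 1.42.0, limma 3.58.1 (voom with quality weights, and trend on log2(TPM + 1) and log2(TPM + 0.1)), RLE factors, no filter, the 2 groups alone, a replicate block, covariates for pigment epithelium and crystallin sums or Y-linked counts, and leaving out each library. The fit without both libraries in doubt and the skeletal muscle list were chosen after seeing the data. TPM entered only these alternatives.

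The comparison and the 35 other gene lists were chosen with earlier results of these data known. Named genes were 35 fixed genes, of which 1 is not reported here, and, since no gene was called, in each direction the 5 genes of smallest p that reached 5 CPM in either group; others are named as chosen after their values were seen, or as examples of a list. Gene coordinates are from GENCODE vM21 (GRCm38), matched by symbol.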

Additional observations from a re-analysis of the deposited data

Results flagged for a closer look

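Within each group of 4 retinas, 158 sets of values (named genes and list sums) were checked for a single retina far from the other 3 by Dixon's test at its 95% critical value of 0.829 for 4 samples. Chance alone sets about 1 in 20 such groups apart, and 18 stood out here.

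Bispecific replicate 1 was far above the other bispecific retinas for Vegfb (60.8 CPM), Pecam1 (8.30 CPM) and the summed interferon and antigen presentation genes (447 CPM). Bispecific replicate 2 was far above for Atp2a1 (78.9 CPM), Acta1 (125 CPM), the skeletal muscle sum (567 CPM) and the sex-linked sum (569 CPM, nearly all Xist). Bispecific replicate 3 was apart for Dll4 (3.60 CPM) and the endothelial sum (323 CPM), and bispecific replicate 4 for the immediate early gene sum (640.0 CPM).

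Among IgG retinas, replicate 4 was far above the others for Cryaa (1378 CPM), the crystallin sum (4498 CPM) and the lens sum (65.3 CPM), and far below for Nrp1 (8.90 CPM). IgG replicate 1 was apart with high Pecam1 (6.73 CPM) and a high bipolar cell sum (2109 CPM), and with low Esm1 (0.686 CPM) and low Aif1 (1.20 CPM).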

How the results depend on the processing

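The count of genes called between bispecific and IgG retinas at P17 was 0 under 18 of 19 alternatives, with 644 to 1836 genes at an unadjusted p under 0.05, and 16 with DESeq2. DESeq2 also called 19 genes for the difference between the ages, 15 for bispecific against anti-VEGFA and 20 for bispecific against anti-ANG-2, where edgeR called 0; the cause was not tested. Leaving out 1 library at a time gave 0 to 0 calls in the P17 comparison and in both comparisons with single antibodies, and 0 to 2 for the age difference. With the replicate number as a block, 0 genes were called (860 at an unadjusted p under 0.05); same-numbered retinas did not deviate together (r of -0.06, -0.05, -0.01 and -0.13 over genes), so the numbers are not taken to pair the retinas. Of 36 list medians, 13 had the same sign under every alternative run. Among them were Müller glia, horizontal cells, hypoxia, glycolysis and tip cell genes, the last reaching -0.004. The crystallin and skeletal muscle lists, each highest in 1 library, were also among them. All alternatives draw on the same retinas, so a kept sign is not a separate result. The microglial median was 0.08 with covariates for pigment epithelium and crystallin sums, against -0.15 without. Of the named genes, Vegfa ran from -0.10 to 0.22 and Angpt2 from -0.82 to -0.23 in log2 fold change. Depth and 4 retinas per group limit what can be seen: in genes of 1 to 5 CPM the median interval reached 2.89-fold to either side, and only 3 of 836 named-gene values under the alternatives were called, all by DESeq2 (Cryaa, Atp2a1, Arhgap15).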

Other observations

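Red blood cell genes, which follow how much blood a dissected retina holds, were spread widely. Their sum was 270 to 636 CPM in bispecific retinas, 163 to 1501 CPM in IgG retinas and 92.7 to 249 CPM in controls, and 0 of the 7 genes tested were called between bispecific and IgG retinas. Rpe65, the pigment epithelium enzyme of the visual cycle, had 111 ± 12.9 CPM with bispecific, 96.5 ± 32.2 CPM with IgG and 20.8 ± 9.48 CPM in controls (SD, n = 4 each), with a fold of bispecific over IgG of 1.15 (0.589 to 2.26).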
